A study of Mus musculus with 8 samples.

Results

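The genes described are those of synaptic vesicle release and of the SNARE proteins that fuse vesicles with membranes. They were taken by symbol: every gene of the Syt, Stx, Vamp, Syn, Cplx, Rims, Snap and Sv2 families that the symbol pattern (a family name, a number and at most 1 letter, or Sv2a to Sv2c) finds in the count tables, 58 of 23284 genes in all. Of these, 55 passed the filter on low counts and were tested. Stx19 had 22 counts over all libraries, Syt8 had 13 and Vamp7 had 0, and these were not tested. RNA came from microdissected peripheral retina of mice at postnatal day 12. In 4 libraries, called Rb-null here, the Pax6 alpha enhancer drives Cre recombinase, which deletes floxed Rb1 (Rb lox/lox), the gene of the retinoblastoma protein that restrains cell division. In the 4 called TET-MYCN the genotype label is Rb null with TET-MYCN, and the series text gives the Pax6 alpha-enhancer Cre, a Cre-dependent Rosa26 transactivator (LSL-RTTA) and a TRE-MYCN transgene. That text does not repeat the floxed Rb1 alleles for the TET-MYCN mice, no doxycycline is mentioned in the labels used here, and cells in which the enhancer is not active keep Rb1. Whether a library stands for 1 animal is not in the labels. The p-values thus reflect variation among these libraries, some of which may be technical.

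Vesicle fusion rests on a bundle of SNARE proteins: a synaptobrevin (Vamp) on the vesicle, and a syntaxin (Stx) and a SNAP protein on the target membrane. Synaptotagmins (Syt) sense calcium, complexins (Cplx) clamp and prime the bundle, RIM proteins (Rims) tie vesicles to the active zone, and synapsins (Syn) and SV2 proteins sit on the vesicle itself. Photoreceptors and bipolar cells release glutamate continuously at ribbon synapses, which use syntaxin 3 (Stx3), complexins 3 and 4 (Cplx3, Cplx4) and SV2B (Sv2b). Amacrine and ganglion cells make conventional synapses with syntaxin 1 (Stx1a), complexins 1 and 2 (Cplx1, Cplx2) and SV2A (Sv2a), although SV2A is also found at ribbon synapses and some amacrine cells hold complexin 3.

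Gene counts totalled 14872131 to 22873979 reads per library, and the 58 genes took 0.592% to 0.731% of them in the Rb-null libraries and 0.449% to 0.609% in the TET-MYCN libraries. Library values are listed in the order 1 to 4, Rb-null first and TET-MYCN after "against". Levels are given as CPM, gene counts scaled to a common library size with TMM factors, which correct for differences in library composition, and a positive log2 fold change means a higher level in the TET-MYCN libraries. Mouse Mycn and Rb1 checked the labels little, with log2 fold changes of 0.07 ± 0.28 and -0.06 ± 0.14 (SE). Summed CPM of 10 rod photoreceptor markers ran from 4006 to 18411 in the Rb-null libraries, lowest in library 2 and highest in library 3, and from 2777 to 6821 in the TET-MYCN libraries, lowest in library 4. Median log2 fold changes were -1.24 for rod, -0.87 for cone, -0.85 for bipolar, -0.97 for Müller glia, -0.54 for ganglion cell and -0.09 for amacrine markers. They were 0.79 for markers of progenitors and cycling cells and 1.26 for horizontal cell markers. At an unadjusted p under 0.05, 7 of 10 rod, 6 of 10 bipolar, 4 of 5 Müller glia and 3 of 7 ganglion cell markers were lower (7.72% of all genes tested). So were 1 of 6 cone and 1 of 8 amacrine markers, counts near that share in sets of this size. Higher at that p were 4 of 6 progenitor and cycling and 2 of 4 horizontal cell markers (8.06% of all genes tested). All 10 rod, 10 bipolar and 8 amacrine markers were detected. Lens markers summed to 14.6 to 395 CPM over the Rb-null libraries and were highest in Rb-null 2 and 3. Over the TET-MYCN libraries they summed to 8.70 to 40.1 CPM, a range that held Rb-null 1. Their median log2 fold change was -2.29, and 4 of 6 tested were lower at an unadjusted p under 0.05 (7.72% of all genes tested). TET-MYCN 3 stood apart by transcript length. Over 1866 genes with a transcript over 6 kb it lay at a median of -0.49 on the log2 scale against the mean of the other 3 TET-MYCN libraries, and over 3077 genes under 2 kb at 0.34. Its share counted as multiply aligned was the highest of all libraries, 12.8% of the total in its file, with Rb-null 1 next at 11.7%.

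No gene of the 58 passed the test over all genes: 0 of 55 had an adjusted p under 0.05, where 9 of 15106 genes tested did (0.0596%, edgeR's quasi-likelihood test, Benjamini-Hochberg). At an unadjusted p under 0.05 there were 13 lower and 2 higher, 23.6% and 3.64% of the 55, beside 7.72% lower and 8.06% higher over all genes tested. DESeq2, which called 539 of 15106 genes, called 4 members, Syt10, Sv2a and Syt13 as lower and Rims1 as higher. With limma-voom 0 members were called and 15 had an unadjusted p under 0.05, beside 14.97% of all genes. The log2 fold change was negative for 42 of 55 members, with a median of -0.10 against 0.01 for all genes. The groups of 4 libraries did not overlap for 6 members, Syt10, Sv2a, Syt13, Syn2, Syt3 and Vamp1, all lower in TET-MYCN (10.9%, beside 3.29% of all genes), and for 0 members in the higher direction (4.36% of all genes, and 7.65% in either direction). Leaving out TET-MYCN 4 left 7 lower and 2 higher at an unadjusted p under 0.05, and leaving out TET-MYCN 3 left 13 lower and 7 higher. Over all genes tested, the share at that p in either direction was 15.8% with all libraries, 10.6% without TET-MYCN 4 and 24.1% without TET-MYCN 3. In bulk RNA, fewer cells of a type and less RNA per cell cannot be told apart.

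The values were set out by role. Of 37 tested genes other than the trafficking SNAREs, 29 had a negative log2 fold change and 13 were lower at an unadjusted p under 0.05 (35.1%, beside 7.72% of all genes), with a median of -0.27. Of 18 trafficking SNAREs, which serve mainly the Golgi, endosomes, lysosomes and plasma membrane outside the synapse, 0 were lower and 1 (Stx11) was higher at that p, counts near the share of all genes in a set of this size, and 16 lay within 0.25 of 0 on the log2 scale, with a median of -0.03. These 2 sets were compared as a description, with no test of the difference between them.

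**Figure D1:**
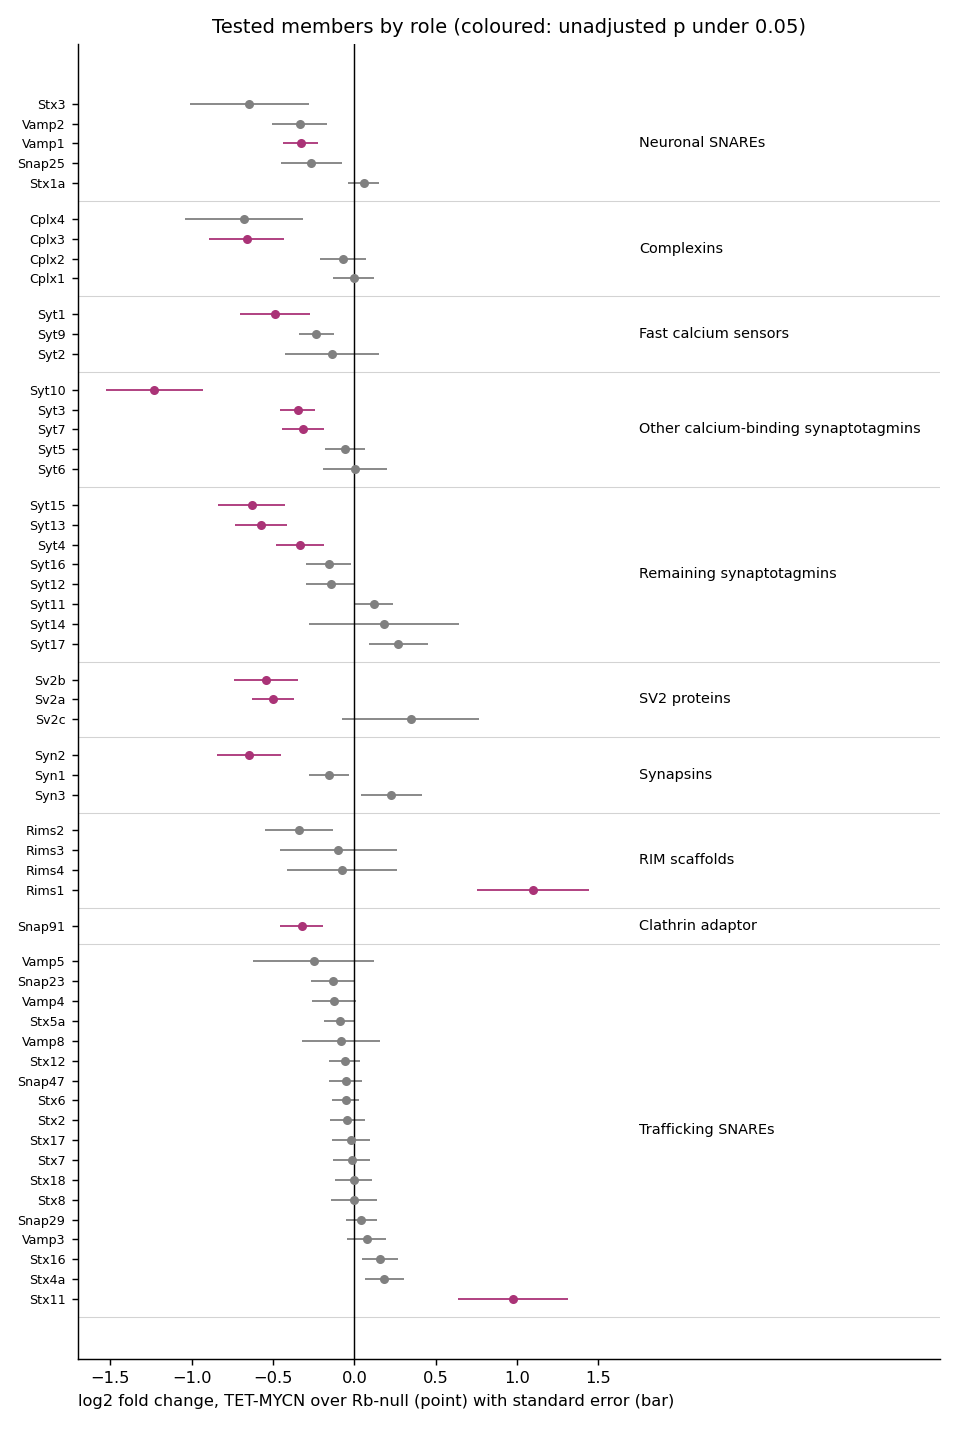
Log2 fold change (x axis, TET-MYCN over Rb-null) with its standard error for the tested members shown, grouped by role; coloured points have an unadjusted p under 0.05 and 0 members passed the adjusted threshold. Most synaptic genes lie left of 0, Rims1 and Stx11 lie to the right near 1, and the trafficking SNAREs other than Stx11 lie close to 0.

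Stx3, the syntaxin of ribbon synapses, was the syntaxin with the highest level per length, at 137 CPM per kb of transcript in Rb-null and 87.9 in TET-MYCN, against 15.5 and 16.1 for Stx1a. The libraries gave 352, 212, 533 and 448 CPM against 293, 269, 329 and 97.3 CPM. Rb-null 2 lay within the TET-MYCN range, so the groups overlapped, and the lowest value was that of TET-MYCN 4. The log2 fold change was -0.65 ± 0.37 (adjusted p = 0.418). Its conventional counterpart Stx1a varied little between libraries, at 32.1, 34.6, 32.2 and 35.3 CPM against 31.1, 36.0, 35.9 and 36.6 CPM (0.06 ± 0.10, adjusted p = 0.825).

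Cplx3, a complexin anchored to membrane by a lipid tail, stood at 308, 280, 404 and 377 CPM against 158, 204, 332 and 171 CPM. Only TET-MYCN 3 reached into the Rb-null range. The log2 fold change was -0.66 ± 0.23 (adjusted p = 0.230; DESeq2 adjusted p = 0.0847). Without TET-MYCN 3 it was -0.94 ± 0.15 (adjusted p = 0.0313), in a fit where 24.1% of all genes had an unadjusted p under 0.05. No other single omission brought the adjusted p of Cplx3 under 0.05, and without TET-MYCN 1 it was -0.55 ± 0.23 (adjusted p = 0.417). Cplx4, found mainly in photoreceptors, had 102, 64.7, 210 and 160 CPM against 97.2, 84.4, 109 and 44.8 CPM, with overlapping groups (-0.68 ± 0.36, adjusted p = 0.388). Cplx1 had 84.8, 76.9, 105 and 112 CPM against 95.3, 88.8, 95.6 and 97.8 CPM. Its TET-MYCN values lay inside the Rb-null range, and its log2 fold change of -0.0048 ± 0.13 turned positive under scaling to total counts (0.0068). Cplx2, the complexin with the highest level per length (120.0 CPM per kb in Rb-null, with Cplx3 at 119.7, and 114 in TET-MYCN, with Cplx3 at 75.7), was at 680, 612, 543 and 531 CPM against 471, 668, 607 and 507 CPM (-0.07 ± 0.14, adjusted p = 0.856), again with groups that overlapped.

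For SV2, a vesicle glycoprotein needed for normal release, Sv2a and Sv2b had similar log2 fold changes. Sv2b had 285, 202, 382 and 294 CPM against 209, 204, 235 and 149 CPM. Rb-null 2 was below 3 of the TET-MYCN libraries, so the groups overlapped (-0.54 ± 0.20, adjusted p = 0.241). Sv2a had 274, 284, 368 and 327 CPM against 209, 261, 217 and 199 CPM. All 4 TET-MYCN values lay below all 4 Rb-null values (-0.50 ± 0.13, adjusted p = 0.164; DESeq2 adjusted p = 0.0188). Sv2c, a low gene, was at 5.50, 5.59, 6.95 and 5.52 CPM against 8.77, 11.9, 1.91 and 7.20 CPM. TET-MYCN 3 was the lowest of all libraries for Sv2c and the other 3 were above the Rb-null range, so its log2 fold change was 0.35 ± 0.42 over all libraries and 0.66 ± 0.20 (adjusted p = 0.107) without TET-MYCN 3.

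**Figure D2:**
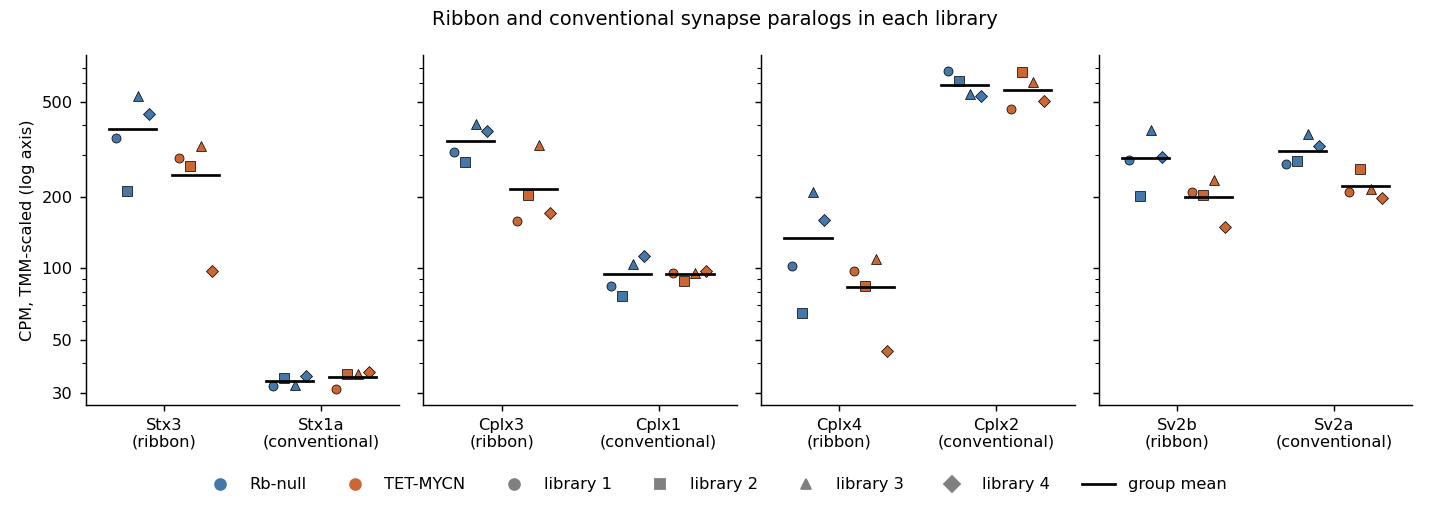
CPM after TMM scaling (y axis, log scale) of the 4 ribbon paralogs and their conventional counterparts; each point is a library (shape: library number), the line is the group mean of 4. Stx3 runs from 97.3 to 533 CPM over the 8 libraries and Stx1a from 31.1 to 36.6 CPM; of the 8 genes, the groups separate for Sv2a alone.

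The contrast between the paralog sets was taken within each library as the mean log2 CPM of Stx3, Cplx3, Cplx4 and Sv2b minus that of Stx1a, Cplx1, Cplx2 and Sv2a. It was 0.66, 0.19, 1.17 and 0.88 in the Rb-null libraries and 0.42, 0.19, 0.66 and -0.42 in the TET-MYCN libraries. The groups overlapped, and the means differed by -0.51 on the log2 scale, within a range of -0.69 to -0.30 when each library was left out, the smallest without TET-MYCN 4. The ribbon mean differed by -0.64 between groups and the conventional mean by -0.13. By pair, the difference between groups was -0.76 for Stx3 minus Stx1a, -0.72 for Cplx3 minus Cplx1, -0.54 for Cplx4 minus Cplx2 and -0.03 for Sv2b minus Sv2a. The SV2 pair lay near 0 while the other 3 pairs did not, and the difference among pairs was not tested. Cplx3 minus Cplx1 was the tightest within Rb-null, at 1.75 to 1.95, with 0.73, 1.20 and 0.81 in TET-MYCN 1, 2 and 4 and 1.795 in TET-MYCN 3. Genes were not scaled for length in these differences, so only their shifts between libraries carry meaning.

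Of the ribbon paralogs, Stx3, Sv2b and Cplx4 stood in nearly the library order of the rod markers, and Cplx3 did not. In falling order the libraries stood for the rod marker sum as Rb-null 3, 4 and 1, TET-MYCN 1, 3 and 2, Rb-null 2 and TET-MYCN 4. Stx3 and Sv2b gave this order with TET-MYCN 1 and 3 exchanged. Cplx4 gave that of Stx3 with TET-MYCN 3 placed before Rb-null 1. Cplx3 also began with Rb-null 3 and 4, followed by TET-MYCN 3, Rb-null 1 and 2, and TET-MYCN 2, 4 and 1. Of the conventional paralogs, Sv2a also began with Rb-null 3 and 4 and ended with TET-MYCN 4, and Cplx1 began with Rb-null 4 and 3 and ended with Rb-null 2. Stx1a began with TET-MYCN 4 and Cplx2 with Rb-null 1, and both ended with TET-MYCN 1. The mean log2 CPM of the ribbon set spanned 6.69 to 8.50 over the 8 libraries, and that of the conventional set 7.03 to 7.34. Rods were not alone in this order. The cone marker sum began with Rb-null 3 and 4, TET-MYCN 3 and Rb-null 1, and the bipolar sum with Rb-null 4 and 3. Both ended with TET-MYCN 4, as did the amacrine sum, which began with TET-MYCN 2. The ganglion cell sum began with Rb-null 4, 3 and 1 and ended with Rb-null 2. The Müller glia sum began with Rb-null 3, 4, 2 and 1, all above every TET-MYCN library. Outside the paralog sets, Rims2, Snap25, Snap91, Syn1, Syn2, Syt1 and Vamp2 were also highest in Rb-null 3 and lowest in TET-MYCN 4. The part of rod, cone, bipolar, ganglion cell or Müller glia content in the group difference was not tested.

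**Figure D3:**
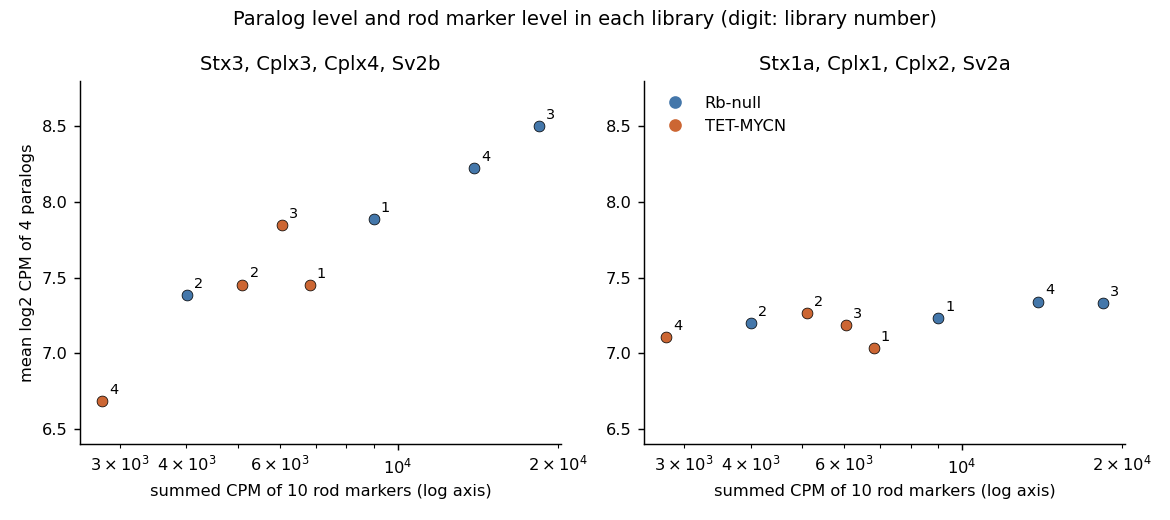
Mean log2 CPM of the 4 ribbon paralogs (left) and the 4 conventional paralogs (right) against the summed CPM of 10 rod markers (x axis, log scale), 1 point per library with its number. The ribbon set runs from 6.69 in TET-MYCN 4 to 8.50 in Rb-null 3 along the rod markers, and the conventional set stays between 7.03 and 7.34.

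Promoters are shown for 3 of the 4 pairs, so that the paralogs' sequences can be read beside their values. The Cplx4 and Cplx2 pair is not shown. Each line gives the 250 bases before the RefSeq transcription start (GRCm38.p6; the counts were made on mm9, and only sequence was taken from the newer build), read 5′ to 3′ on the gene's own strand, with TAATCC, the core letters bound by the photoreceptor factor CRX, and CACGTG, the E-box bound by MYC-MAX dimers, in capitals. Both motifs were searched on both strands, capitals mark a match on either, and they do not overlap here.
Stx3 (chr19:11819404-11819653, minus strand): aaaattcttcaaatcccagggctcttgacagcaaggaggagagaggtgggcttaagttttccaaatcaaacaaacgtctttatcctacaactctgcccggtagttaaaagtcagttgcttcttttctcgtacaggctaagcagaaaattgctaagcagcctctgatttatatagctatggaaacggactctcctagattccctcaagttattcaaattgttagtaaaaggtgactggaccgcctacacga
Stx1a (chr5:135023232-135023481, plus strand): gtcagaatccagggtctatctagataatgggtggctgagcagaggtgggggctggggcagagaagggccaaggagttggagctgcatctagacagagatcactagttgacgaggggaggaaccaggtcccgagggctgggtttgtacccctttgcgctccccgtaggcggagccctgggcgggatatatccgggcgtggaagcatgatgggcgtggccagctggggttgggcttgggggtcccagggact
Cplx3 (chr9:57606282-57606531, minus strand): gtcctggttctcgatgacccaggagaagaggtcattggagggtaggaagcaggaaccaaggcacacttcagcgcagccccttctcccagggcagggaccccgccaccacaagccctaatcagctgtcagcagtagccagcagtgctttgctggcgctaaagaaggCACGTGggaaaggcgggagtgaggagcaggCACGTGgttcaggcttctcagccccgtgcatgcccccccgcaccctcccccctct
Cplx1 (chr5:108550028-108550277, minus strand): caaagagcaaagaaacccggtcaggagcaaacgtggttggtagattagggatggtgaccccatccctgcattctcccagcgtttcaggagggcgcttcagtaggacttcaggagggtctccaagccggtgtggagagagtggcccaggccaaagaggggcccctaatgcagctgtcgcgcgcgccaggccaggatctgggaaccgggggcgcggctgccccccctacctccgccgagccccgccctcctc
Sv2b (chr7:75309263-75309512, minus strand): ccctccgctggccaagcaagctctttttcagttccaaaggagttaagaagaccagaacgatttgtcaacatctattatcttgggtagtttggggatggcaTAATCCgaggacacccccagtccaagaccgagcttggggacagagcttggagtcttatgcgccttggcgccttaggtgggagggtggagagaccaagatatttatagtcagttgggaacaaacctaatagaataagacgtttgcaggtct
Sv2a (chr3:96180977-96181226, plus strand): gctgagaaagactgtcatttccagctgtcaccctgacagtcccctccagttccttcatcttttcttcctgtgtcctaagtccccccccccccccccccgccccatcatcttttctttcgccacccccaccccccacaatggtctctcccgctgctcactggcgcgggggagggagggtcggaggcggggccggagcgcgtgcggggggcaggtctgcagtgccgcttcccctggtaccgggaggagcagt
The Stx3 window held neither motif, but TAATCC began at base 31 counted from 1 at its start, within these 30 bases at chr19:11819356-11819385 on the minus strand: ccactagcatcaTAATCCccaaattcctcg. Sv2b held TAATCC 150 bases before the most upstream of its 4 listed starts, and Cplx3 held CACGTG at 85 and 55 bases before its start. The windows of Stx1a, Cplx1 and Sv2a held neither. Over 32851 windows of this length, 6.25% held TAATCC and 6.02% held CACGTG. With the 50 bases after the start added, 3 of 43 members with a listed promoter held TAATCC (Rims3, Stx3 and Sv2b; 6.98%, beside 7.06% of all windows). In that window CACGTG was found in 6 of 43 (Cplx3, Stx6, Sv2b, Syt14, Syt6 and Vamp4; 13.95%, beside 7.15%). A member with several starts was counted once if any start held the letters. The shares over all windows count each start on its own, so the shares of members are not like for like with them. GC content was 42.0% for Stx3 and 48.8% for Sv2b, below the median of 52.4% over all windows, and 62.0%, 62.8%, 64.8% and 66.0% for Stx1a, Cplx3, Cplx1 and Sv2a. Letters in a window are a description and not evidence of binding.

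Among the other neuronal SNAREs, Snap25, the plasma membrane SNAP of neurons, had the highest level per length of all members, 387 CPM per kb in Rb-null and 322 in TET-MYCN. It stood at 769, 706, 925 and 880 CPM against 690, 737, 851 and 451 CPM, with TET-MYCN 4 far below the other 7 libraries (-0.27 ± 0.19, adjusted p = 0.522). Vamp2, the main synaptic vesicle synaptobrevin, followed at 269 and 213 CPM per kb. Its values were 562, 501, 687 and 624 CPM against 449, 519, 573 and 342 CPM (-0.33 ± 0.17, adjusted p = 0.365). Vamp1, a second synaptobrevin, had 32.8, 31.7, 37.4 and 41.5 CPM against 28.5, 28.0, 28.2 and 29.3 CPM. Its groups did not overlap and its TET-MYCN values were close together (-0.33 ± 0.11, adjusted p = 0.218). Snap91, which codes for the clathrin adaptor AP180 of vesicle retrieval, is no SNARE but bears the symbol. It had 258, 245, 326 and 282 CPM against 237, 245, 225 and 179 CPM (-0.32 ± 0.13, adjusted p = 0.281).

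Of 16 synaptotagmins tested, 12 had a negative log2 fold change, and 7 were lower and 0 higher at an unadjusted p under 0.05 (43.75% lower, beside 7.72% lower and 8.06% higher of all genes, of which 47.8% had a negative value). Syt6 was among the positive ones only under some settings (0.0028 by the main test and -0.0036 with DESeq2's size factors). Syt1, the fast calcium sensor of many central synapses, had the highest level per length, 116 and 83.2 CPM per kb. It stood at 508, 464, 680 and 594 CPM against 398, 540, 413 and 253 CPM, with overlap through TET-MYCN 2 (-0.49 ± 0.21, adjusted p = 0.311). Syt10, a calcium-binding synaptotagmin known for IGF-1 secretion from olfactory bulb neurons, had the smallest p of all members. It was low, at 3.82, 4.62, 4.46 and 4.11 CPM against 0.927, 2.86, 1.799 and 1.56 CPM (-1.23 ± 0.30, adjusted p = 0.158; DESeq2 adjusted p = 0.0107). All 4 TET-MYCN values lay below the Rb-null range. Without TET-MYCN 2 the adjusted p was 0.0415, and no other single omission brought it under 0.05. The log2 fold change ran from -1.57 to -1.03 when each library was left out.

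Syt13, a synaptotagmin that does not bind calcium, also had groups that did not overlap, at 65.0, 70.7, 76.0 and 77.4 CPM against 38.7, 60.4, 55.9 and 38.8 CPM (-0.58 ± 0.16, adjusted p = 0.170; DESeq2 adjusted p = 0.0357). Syt3, a calcium sensor of slower kinetics, had 23.0, 23.5, 26.3 and 27.1 CPM against 17.9, 20.3, 20.2 and 20.04 CPM, without overlap (-0.35 ± 0.11, adjusted p = 0.201). Syt15 was at 14.7, 22.4, 17.4 and 18.9 CPM against 11.7, 8.96, 10.3 and 16.4 CPM, overlapping through TET-MYCN 4 (-0.63 ± 0.21, adjusted p = 0.213). The other 11 synaptotagmins tested had log2 fold changes between -0.34 (Syt4) and 0.27 (Syt17).

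Synapsins, which tether the reserve pool of vesicles, went different ways. Syn2 was at 32.4, 33.6, 48.2 and 40.6 CPM against 20.6, 30.4, 29.7 and 18.03 CPM, without overlap (-0.65 ± 0.20, adjusted p = 0.198). Syn1, the X-linked synapsin and the one with the highest level per length, was at 113 to 147 CPM and 96.8 to 129 CPM (-0.16 ± 0.12, adjusted p = 0.575). Syn3, the synapsin of early neuronal development, was at 38.6, 47.0, 38.9 and 35.1 CPM against 57.0, 51.6, 29.3 and 49.0 CPM. Only TET-MYCN 3 kept the Syn3 groups from separating (0.23 ± 0.19, adjusted p = 0.594).

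Rims1, the RIM1 scaffold of the active zone, had the largest positive value of the members. It stood at 21.1, 14.6, 20.3 and 17.2 CPM against 34.3, 65.7, 16.0 and 40.1 CPM. In TET-MYCN 1, 2 and 4 it was above every Rb-null library and in TET-MYCN 3 it was not (1.10 ± 0.34, adjusted p = 0.202; DESeq2 adjusted p = 0.0407; 1.35 ± 0.23 and adjusted p = 0.0339 without TET-MYCN 3, 0.72 ± 0.29 and adjusted p = 0.256 without TET-MYCN 2). Rims2, the RIM with the highest level per length in both groups, had 99.2, 84.1, 164 and 127 CPM against 115, 99.5, 82.0 and 78.6 CPM (-0.34 ± 0.21, adjusted p = 0.453). Rims3 and Rims4, short RIMs of the γ type, were at 4.37 to 8.39 CPM over the Rb-null libraries. They were at 2.30 and 2.59 CPM in TET-MYCN 3 and at 6.36 to 10.5 CPM in the other 3. Summed CPM of 4 horizontal cell markers was 81.2 to 116 in the Rb-null libraries and 287, 147, 63.4 and 172 in TET-MYCN 1 to 4, also lowest in library 3. Its part in the Rims1 value was not tested.

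TET-MYCN 3 was the lowest of all 8 libraries for 11 members, whose transcripts had a median length of 5.02 kb, and the highest for 9. TET-MYCN 1 and TET-MYCN 4 were each the lowest for 16, with median lengths of 2.97 and 3.64 kb. Against the mean of TET-MYCN 1, 2 and 4 it stood on the log2 scale at -2.68 for Syt14, -2.28 for Sv2c, -1.90 for Rims3, -1.54 for Rims1, -1.53 for Rims4 and -1.40 for Syt2. Of the 7 members over 6 kb, Syt7 and Syt16 did not share this, at -0.13 and 0.30. The 7 long members had a median of -1.54 in this library, and all 1866 genes over 6 kb had -0.49. The Syt14 value rests on 13 counts in TET-MYCN 3. Whether transcript length bears on these members was not tested. Without TET-MYCN 3 the members higher at an unadjusted p under 0.05 were Rims1, Stx11, Stx16, Sv2c, Syn3, Syt11 and Syt14, in a fit where 24.1% of all genes had such a p in either direction.

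**Figure D4:**
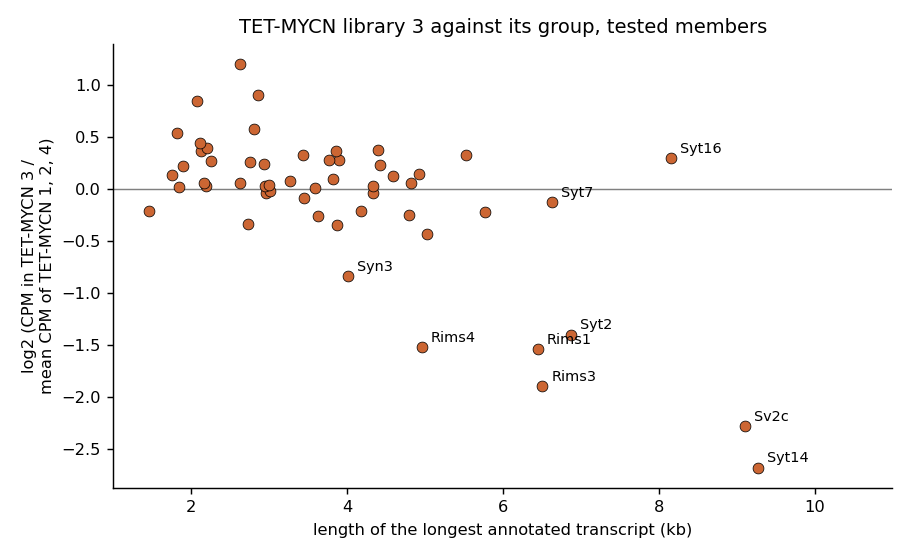
Log2 ratio of CPM in TET-MYCN 3 to the mean CPM of TET-MYCN 1, 2 and 4 (y axis) against the length of the longest annotated transcript in kb (x axis) for the tested members shown. Syt14 and Sv2c, the longest, lie lowest at -2.68 and -2.28, and Syt16 and Syt7 stay near 0.

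Most trafficking SNAREs varied little across libraries. Vamp3, the synaptobrevin of recycling endosomes, was at 46.2 to 56.4 CPM and 47.1 to 65.7 CPM (0.08 ± 0.12), and Vamp4, of the trans-Golgi network, at 55.9 to 58.5 CPM and 39.8 to 60.7 CPM (-0.12 ± 0.13). Vamp5 and Vamp8 were low, at log2 fold changes of -0.25 ± 0.37 and -0.08 ± 0.24. Snap23, the SNAP of non-neuronal cells, had -0.13 ± 0.13, Snap29, of autophagosomes and endosomes, had 0.04 ± 0.10, and Snap47 had -0.05 ± 0.10. Adjusted p for these 7 genes lay between 0.679 and 0.905. Stx11, a syntaxin of immune cells, was the exception in size, at 0.662, 1.03, 0.459 and 1.14 CPM against 2.29, 1.13, 1.46 and 1.66 CPM (0.98 ± 0.34, adjusted p = 0.230). TET-MYCN 2 overlapped with Rb-null 4 there. Summed CPM of 4 microglia markers was 101 to 218 and 108 to 192 in the 2 groups. The other 10 syntaxins of this set lay between -0.09 (Stx5a) and 0.19 (Stx4a).

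Partners of these proteins at the active zone and on the vesicle were taken from a list of 59 genes, of which 58 were tested and Otof was not. At an unadjusted p under 0.05, 19 were lower and 2 higher (32.8% and 3.45%, beside 7.72% and 8.06% of all genes), 0 passed the adjusted threshold, groups did not overlap for 4 lower (Rph3a, Dnm1, Syngr1 and Amph; 6.90%, beside 3.29% of all genes) and 1 higher (Rab3b; 1.72%, beside 4.36%), and the median log2 fold change was -0.25. Leaving out Rb-null 3 left 10 at that p and leaving out Rb-null 4 left 12, while the share of all genes went from 15.8% to 9.12% and 10.3%. Rph3a, a Rab3 effector on vesicles, was at 140, 144, 169 and 152 CPM against 85.3, 112, 106 and 97.3 CPM, without overlap (-0.59 ± 0.11, adjusted p = 0.117). Dnm1, the dynamin that pinches off vesicles, and Syngr1, a vesicle membrane protein, also had groups that did not overlap, with log2 fold changes of -0.65 ± 0.19 and -0.50 ± 0.15 (adjusted p = 0.184 and 0.190). Cacna1f and Cacna2d4, the subunits of the calcium channel at photoreceptor ribbons, had -0.81 ± 0.25 and -1.11 ± 0.34 (adjusted p = 0.200 and 0.198), with overlap through Rb-null 2. Rab3b, a vesicle GTPase, went the other way, at 9.57, 11.2, 8.39 and 9.42 CPM against 13.3, 20.7, 15.6 and 17.9 CPM, all higher (0.80 ± 0.17, adjusted p = 0.147).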

How the data were processed

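The authors deposited whole-number read counts per gene symbol for each of 8 libraries, not normalized. Per the submitters' processing notes the build was mm9 and the tools HTSeq 0.5.4p3, TopHat2 2.0.8b and CASAVA 1.8.2. The sources used here do not state options, annotation or strand setting, so overlapping and antisense genes cannot be separated. HTSeq's summary rows (28.3% to 31.7% of the total per file) were left out. From the counts, TMM scaling, filterByExpr with the group (15106 of 23284 genes kept) and the robust quasi-likelihood F test of edgeR 4.0.16 (R 4.3.3) compared the groups without covariates, with Benjamini-Hochberg adjustment over all genes tested at 0.05. The ± is the standard error, the absolute log2 fold change over the square root of F, with n = 4 per group. Log2 CPM used a prior count of 2. Levels per length divide CPM by the longest transcript of the GENCODE vM21 basic set. In the comparison by transcript length, genes had a mean of at least 1 CPM and 0.1 CPM was added. A count of 3 equals 0.130 to 0.202 CPM, so the 0 counts of Vamp7 allow levels up to that, for counting error only. The GENCODE set gave no transcript for the symbol Vamp7, and reads of the gene may have gone uncounted. That was not tested, so its 0 counts do not show that it is absent. Named were the 8 paralogs, the 12 members with the smallest p, the highest per length in each family, all tested Vamp, Syn, Rims, Snap and Sv2 members, and the 6 partners with the smallest p. Syt2, Syt4, Syt6, Syt7, Syt11, Syt14, Syt16, Syt17, Stx4a, Stx5a, Stx6, Stx16 and Amph were named after their values were seen. Members, lists and rules were chosen with earlier results of these data known. Alternatives used DESeq2 1.42.0, limma-voom (limma 3.58.1), other scalings and filters, a replicate block, and fits with libraries left out. The test was also run on counts simulated independently for each gene. These lacked the shared shifts between libraries seen here, and that run is not used as support. The values of 1 tested member are not reported here, although it is in the counts. Figures used Python 3.11.15 and matplotlib 3.10.9.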

Additional observations from a re-analysis of the deposited data

Results flagged for a closer look

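Values of 3 genes stood far from the other 3 libraries of their group. In TET-MYCN 1, Stx1a was at 31.1 CPM against 35.9 to 36.6 CPM in the other 3 libraries, and Syt3 was at 17.9 CPM against 20.04 to 20.3 CPM. In Rb-null 3, Sv2c was at 6.95 CPM against 5.50 to 5.59 CPM. Of 92 groups of 4 values checked, 3 were found, and chance gives about 1 in 20.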

How the results depend on the processing

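Genes called numbered 9 over all genes tested. The count was 17 with no filter on low counts, 539 with DESeq2, 3 with the replicate number as a block (replicate block), 0 with limma-voom (2262 had an unadjusted p under 0.05) and 0 without Rb-null 2 and 3, the pair richest in lens crystallin reads (1306 at an unadjusted p under 0.05). It ran from 0 to 230 when each library was left out. Members called numbered 4 with DESeq2 and 0 to 2 when each library was left out (Syt10 without TET-MYCN 2; Cplx3 and Rims1 without TET-MYCN 3), against 0 otherwise. Members at an unadjusted p under 0.05, 15 by the main test, were 7 without Rb-null 2 and 3 and 9 to 20 when each library was left out (8.40% and 9.12% to 24.1% of all genes); for the partner list the latter range was 10 to 26, against 21. The median of the members ran from -0.16 to -0.08, and the paralog contrast from -0.69 to -0.30, when each library was left out. Of 39 named genes, 33 kept their sign under all 16 alternatives. Cplx1 was 0.0068 with total counts alone, 0.011 with limma-voom and 0.011 with the replicate block, and -0.092 to 0.079 when each library was left out. Without Rb-null 2 and 3, Rims3 was 0.035 and Rims4 0.091, and with single libraries left out they ran from -0.36 to 0.19 and from -0.26 to 0.18. Such ranges were -0.17 to 0.0029 for Cplx2, -0.024 to 0.13 for Vamp3 and -0.34 to 0.018 for Vamp8. The cause of these shifts was not tested. Libraries sharing a number did not deviate together (correlations of -0.30 to -0.04, and for 0 of 4 Rb-null libraries was the own number the best match). With so few libraries, these correlations cannot tell whether those of the same number were handled together. Depth limits the members with few counts. Among them are Stx11 (176 over all libraries), Syt17 (324), Vamp5 (343), Syt10 (424), Syt14 (507) and those left untested.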
